A study of Mus musculus with 12 samples.

Results

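The 37 genes described here are markers of macrophages and of white blood cells more widely. They were listed by name, and a gene was kept where the array table holds a probe set assigned to that gene alone. All 37 were found, each with 1 such probe set, among the 19938 genes measured. The list serves to ask which of the cell preparations carried RNA of immune cells.

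Macrophages are tissue-resident phagocytes. The transcription factor PU.1 (Spi1) and signalling through the CSF1 receptor (Csf1r) set up and keep the lineage. Their surface carries scavenger receptors, lectins and Fc receptors, several of which signal through the adaptors Tyrobp and Fcer1g. Their lysosomes hold lysozyme and cathepsins, and their oxidase makes superoxide. In the lung they live in the airspaces and in the tissue between them. CD45 (Ptprc) marks all nucleated white blood cells, whereas CD3 epsilon (Cd3e) belongs to T cells.

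The arrays fell into 4 groups of 3. ESC was V6.5, an established mouse embryonic stem cell line, grown in 15% serum with LIF at 1000 IU/ml. The null_EB group held embryoid bodies, cell aggregates that formed 24 to 36 h after lung endothelial cells of CD47 null C57Bl/6 mice, passaged for 6 months, were placed in basal medium without serum. The null_EC group held CD47 null C57Bl/6 lung endothelial cells, and the WT_EC group wild-type C57Bl/6 lung endothelial cells, both kept in endothelial growth medium. The labels give neither how the endothelial cells were purified nor their passage other than in null_EB. They do not say whether the 3 replicates of a group came from separate mice or cultures, so the p-values measure the spread between these samples, which may be technical.

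Values are log2 signals, the deposited RMA values. With no detection calls, a signal below 8.01, the median of all values, is called low signal. Group values are means ± SD of 3 arrays. The array medians lay between 7.95 and 8.08. Pairs of arrays within a group correlated across genes at 0.996 to 0.998 in ESC, 0.997 to 0.998 in null_EB, 0.998 in null_EC and 0.949 to 0.958 in WT_EC, where genes are not independent replicates. The targeted gene Cd47 was at 10.98, 11.11 and 11.02 on the null_EC arrays and at 12.59, 11.29 and 12.48 on the WT_EC arrays, and since its probe positions are not known, this is no check of the deletion. Pecam1, a marker of endothelial cells though not of them alone, had low signal in both endothelial groups. It was at 6.57, 6.60 and 6.61 in null_EC and 6.80, 6.46 and 7.56 in WT_EC, and was highest in ESC, at 8.87, 8.87 and 8.84. Cdh5, VE-cadherin, was at 7.27, 7.11 and 7.09 in null_EC and 9.10, 6.85 and 9.52 in WT_EC. Kdr, the main VEGF receptor, was at 10.83, 10.74 and 10.52 in null_EC and 8.51, 8.61 and 9.35 in WT_EC. The 10 embryonic stem cell genes checked were all called higher in ESC than in null_EC (22.9% of all genes) and in WT_EC (25.4% of all genes).

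The macrophage and leukocyte genes stood high on 1 array, the third wild-type array (WT_EC 3). The median signal of the 37 lay between 6.57 and 6.73 on the 9 arrays of ESC, null_EB and null_EC. Among the wild-type arrays it was 7.56 for the first, 6.72 for the second and 9.06 for the third. WT_EC 3 was the highest of the 12 arrays for 31 of the 37 genes, against 10.4% of all genes measured. For 24 of them it exceeded each of the other 11 arrays by at least 2-fold, against 1.35% of all genes. The members were chosen with earlier results of these data known, and these counts after the values were seen. They are therefore a description and not a test. On the 9 arrays of ESC, null_EB and null_EC, 28 of the 37 genes had low signal throughout. More cells of a type and more RNA per cell cannot be told apart in such bulk samples.

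**Figure D1:**
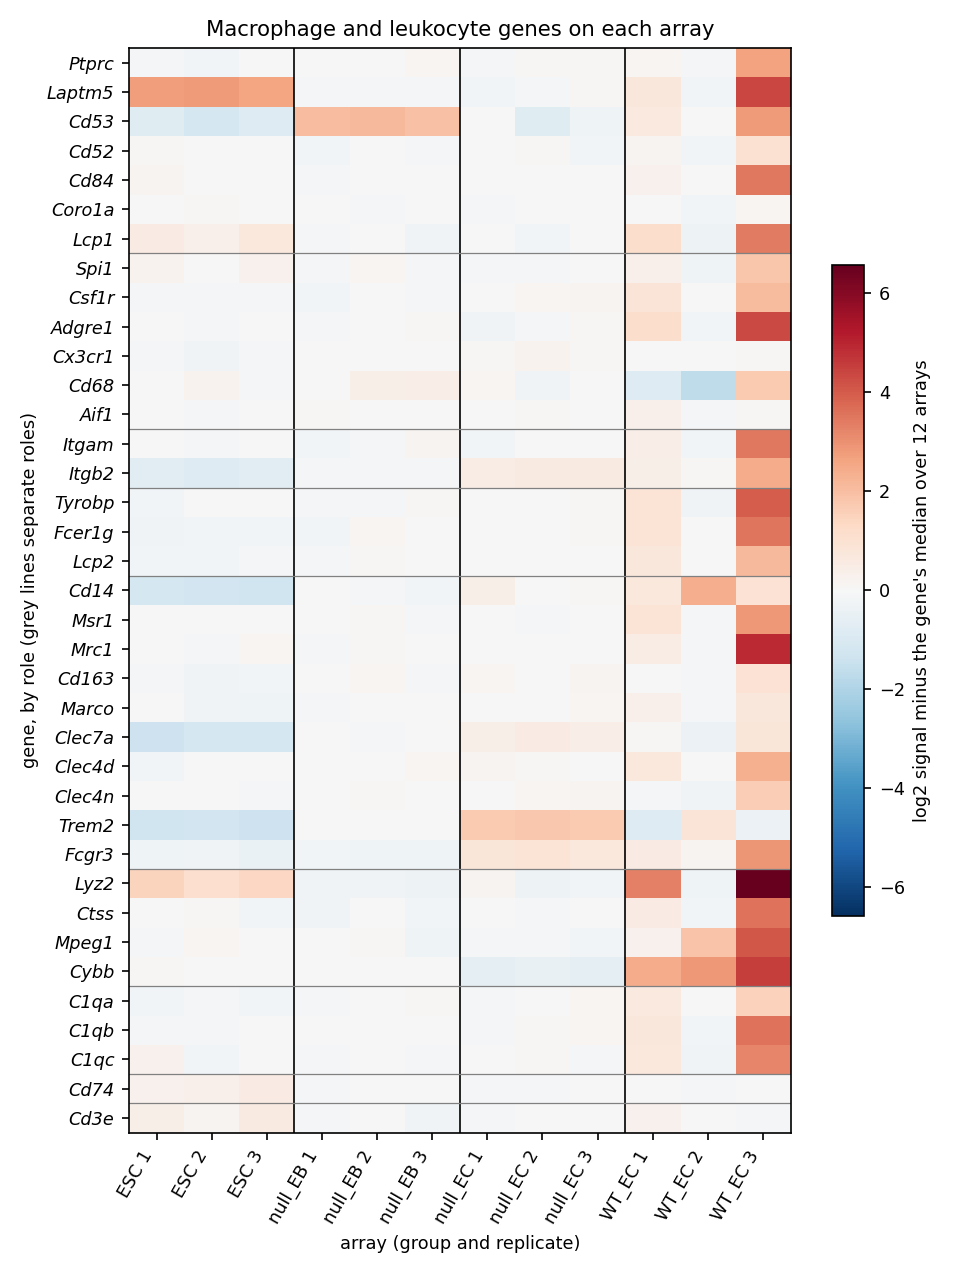
Heat map of the 37 genes (rows, grouped by role) on the 12 arrays (columns, by group and replicate). Colour gives the log2 signal minus the gene's own median over the 12 arrays. WT_EC 3 is the highest array for 31 genes, and Laptm5 in ESC, Cd53 in null_EB and Trem2 in null_EC stand out elsewhere.

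Among the genes of all white blood cells, Ptprc, which encodes CD45, was at 6.31, 6.21 and 6.33 on the ESC arrays, 6.35, 6.38 and 6.49 on the null_EB arrays, 6.29, 6.42 and 6.43 on the null_EC arrays, and 6.48, 6.24 and 9.01 on the WT_EC arrays. It was thus at low signal on 11 arrays and 5.74-fold above the highest of them on WT_EC 3. Laptm5, a lysosomal membrane protein of blood cells, was at 9.66, 9.70 and 9.52 on the ESC arrays, 6.82, 6.82 and 6.83 on the null_EB arrays, 6.75, 6.76 and 6.98 on the null_EC arrays, and 7.63, 6.72 and 11.27 on the WT_EC arrays. It was high on WT_EC 3 and also on all ESC arrays, which lay above the other 8 arrays. Cd53, a tetraspanin of leukocyte membranes, was at 7.21, 6.85 and 7.14 on the ESC arrays, 10, 10.14 and 9.91 on the null_EB arrays, 7.97, 7.19 and 7.69 on the null_EC arrays, and 8.64, 8.02 and 10.81 on the WT_EC arrays. All null_EB arrays stood above every null_EC array, and WT_EC 3 was the highest, by 1.59-fold over the next array. Cd84, a SLAM family receptor, reached 8.22 on WT_EC 3, against 4.68 to 5.03 on the other 11 arrays. The actin bundler Lcp1 (L-plastin) reached 9.95, against 6.24 to 7.69, with WT_EC 1 next at 7.69. Cd52, a small glycoprotein of lymphocytes and other leukocytes, was only 1.75-fold above the next array, at 7.09. Coro1a, an actin regulator of leukocytes, stayed between 6.95 and 7.27 on all 12 arrays.

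Spi1, the PU.1 gene, was at 6.28, 6.06 and 6.33 on the ESC arrays, 5.94, 6.18 and 6.00 on the null_EB arrays, 5.93, 6.00 and 6.08 on the null_EC arrays, and 6.39, 5.78 and 7.88 on the WT_EC arrays. Csf1r, the receptor for the macrophage growth factor CSF1, was at 6.73, 6.69 and 6.71 on the ESC arrays, 6.68, 6.84 and 6.78 on the null_EB arrays, 6.83, 6.96 and 6.99 on the null_EC arrays, and 7.69, 6.86 and 8.92 on the WT_EC arrays. Both were highest on WT_EC 3 and next highest on WT_EC 1, by at least 2.35-fold between these arrays. Adgre1 encodes an adhesion receptor that serves as the classical surface antigen of mouse macrophages. Its signals were 5.69, 5.62 and 5.77 on the ESC arrays, 5.63, 5.75 and 5.81 on the null_EB arrays, 5.48, 5.64 and 5.78 on the null_EC arrays, and 6.90, 5.53 and 10.07 on the WT_EC arrays. The step from WT_EC 1 to WT_EC 3 was 9.04-fold, and WT_EC 1 itself was above the 10 remaining arrays. Cd68, a lysosomal glycoprotein that macrophages hold in large amounts, was not low anywhere: it reached 11.68 on WT_EC 3, against 8.29 to 10.38 on the other 11 arrays, where WT_EC 2 was the lowest. Cx3cr1, the fractalkine receptor of monocytes and some macrophages, lay between 8.24 and 8.69 on all arrays. Aif1 (IBA1), a macrophage actin-binding protein, lay between 6.07 and 6.55. Neither Cx3cr1 nor Aif1 was highest on WT_EC 3.

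The integrin chains Itgam (CD11b) and Itgb2 (CD18), which together form the complement receptor CR3, were at 9.62 and 10.18 on WT_EC 3, against 5.98 to 6.59 and 6.90 to 8.30 on the other arrays. Outside WT_EC 3, Itgb2 was highest in null_EC, at 8.20, 8.30 and 8.30. Tyrobp (DAP12), an adaptor that passes receptor signals through its ITAM, was at 6.80, 6.96 and 7.0 on the ESC arrays, 6.88, 6.89 and 7.04 on the null_EB arrays, 6.97, 6.96 and 7.03 on the null_EC arrays, and 7.84, 6.75 and 10.94 on the WT_EC arrays. Fcer1g, the common Fc receptor gamma chain, was at 6.78, 6.80 and 6.80 on the ESC arrays, 6.81, 7.10 and 6.99 on the null_EB arrays, 6.99, 7.03 and 7.08 on the null_EC arrays, and 7.90, 7.0 and 10.53 on the WT_EC arrays. In both genes WT_EC 3 was at least 6.2-fold above any other array, and WT_EC 1 came second. Lcp2 (SLP-76), an adaptor further down the same pathways, reached 9.12 on WT_EC 3, against 6.79 to 7.72.

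Of the scavenger and pattern receptors, Mrc1, the mannose receptor, set WT_EC 3 apart by the widest margin of the 37 genes. It was at 5.68, 5.64 and 5.82 on the ESC arrays, 5.59, 5.77 and 5.74 on the null_EB arrays, 5.72, 5.71 and 5.71 on the null_EC arrays, and 6.22, 5.61 and 10.62 on the WT_EC arrays. WT_EC 3 was 21.1-fold above WT_EC 1, the next array. The scavenger receptor Msr1 reached 7.83 (other arrays 4.84 to 5.90), and the haemoglobin scavenger receptor Cd163 reached 6.97, 1.69-fold above the next array. Marco, a scavenger receptor of airspace macrophages, was at 7.93 on WT_EC 3, only 1.29-fold above WT_EC 1. The lectins Clec4d and Clec4n, which recognise fungal and mycobacterial sugars, reached 8.18 and 7.19, 3.12-fold and 2.73-fold above the next array. The IgG receptor Fcgr3 reached 9.99, and among the other arrays it was highest in null_EC, at 7.87, 8.0 and 7.79. Clec7a (Dectin-1), a receptor for fungal beta-glucan, was lowest in ESC, at 6.27, 6.45 and 6.46. In null_EC it was at 8.01, 8.14 and 8.05, and WT_EC 3, at 8.40, was only 1.2-fold above the highest of these. Signal shared between close relatives, such as Fcgr3 and the other Fc gamma receptors or Clec4d and Clec4n, was not tested.

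Cd14 and Trem2 followed other patterns. Cd14, the co-receptor for bacterial lipopolysaccharide, was at 6.62, 6.53 and 6.48 on the ESC arrays, 7.76, 7.72 and 7.63 on the null_EB arrays, 8.17, 7.83 and 7.89 on the null_EC arrays, and 8.48, 10.20 and 8.73 on the WT_EC arrays. Its highest array was WT_EC 2, the wild-type array with the lowest median of the list, and WT_EC 1 and WT_EC 3 were close to each other. Trem2, a lipid-sensing receptor that signals through Tyrobp, was at 8.10, 8.17 and 8.08 on the ESC arrays, 9.47, 9.39 and 9.47 on the null_EB arrays, 11.14, 11.22 and 11.15 on the null_EC arrays, and 8.58, 10.26 and 9.06 on the WT_EC arrays. The null_EC arrays were the highest and the ESC arrays the lowest, with no overlap between these groups. Tyrobp, its adaptor, had low signal on the same null_EC arrays, at 6.97, 6.96 and 7.03.

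Of the lysosomal and effector genes, Lyz2, lysozyme of myeloid cells, varied most of the 37. It was at 7.22, 6.82 and 7.10 on the ESC arrays, 5.53, 5.51 and 5.43 on the null_EB arrays, 5.91, 5.41 and 5.57 on the null_EC arrays, and 9.05, 5.44 and 12.31 on the WT_EC arrays. WT_EC 3 was 117-fold and WT_EC 1 12.1-fold above WT_EC 2, which lay among the null_EC and null_EB arrays. Whether the probes tell it from its near-identical neighbour Lyz1 was not tested. Ctss, cathepsin S, was at 6.60, 6.64 and 6.41 on the ESC arrays, 6.37, 6.57 and 6.41 on the null_EB arrays, 6.61, 6.52 and 6.60 on the null_EC arrays, and 7.10, 6.41 and 10.14 on the WT_EC arrays. Mpeg1 encodes perforin-2, a pore-forming protein of phagocytes. It was at 5.76, 5.92 and 5.78 on the ESC arrays, 5.85, 5.91 and 5.54 on the null_EB arrays, 5.70, 5.75 and 5.62 on the null_EC arrays, and 6.08, 7.69 and 9.90 on the WT_EC arrays. Here WT_EC 2 came second and WT_EC 1 was close to the other groups. Cybb, the gp91 subunit of the phagocyte NADPH oxidase, was at 7.22, 7.10 and 7.13 on the ESC arrays, 7.11, 7.16 and 7.14 on the null_EB arrays, 6.55, 6.66 and 6.53 on the null_EC arrays, and 9.56, 10 and 11.70 on the WT_EC arrays. As with Cd14, each of the 3 WT_EC arrays stood above every array of the other groups.

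The complement genes C1qa, C1qb and C1qc encode the chains of C1q, which macrophages secrete. C1qb was at 6.63, 6.61 and 6.70 on the ESC arrays, 6.68, 6.73 and 6.66 on the null_EB arrays, 6.54, 6.76 and 6.80 on the null_EC arrays, and 7.41, 6.53 and 10.27 on the WT_EC arrays. C1qc reached 9.30 on WT_EC 3, against 5.89 to 6.79, and C1qa 8.62, against 6.92 to 7.72. All 3 had WT_EC 1 as the second-highest array. Cd74, the invariant chain of MHC class II, stayed at low signal on all 12 arrays (6.30 to 6.95) and was highest in ESC. Cd3e, of the T cell receptor complex, was at 7.91, 7.73 and 8.10 on the ESC arrays, 7.39, 7.52 and 7.31 on the null_EB arrays, 7.47, 7.55 and 7.50 on the null_EC arrays, and 7.83, 7.58 and 7.47 on the WT_EC arrays. Neither Cd74 nor Cd3e was raised on WT_EC 3, which lay within the range of the other arrays in both.

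**Figure D2:**
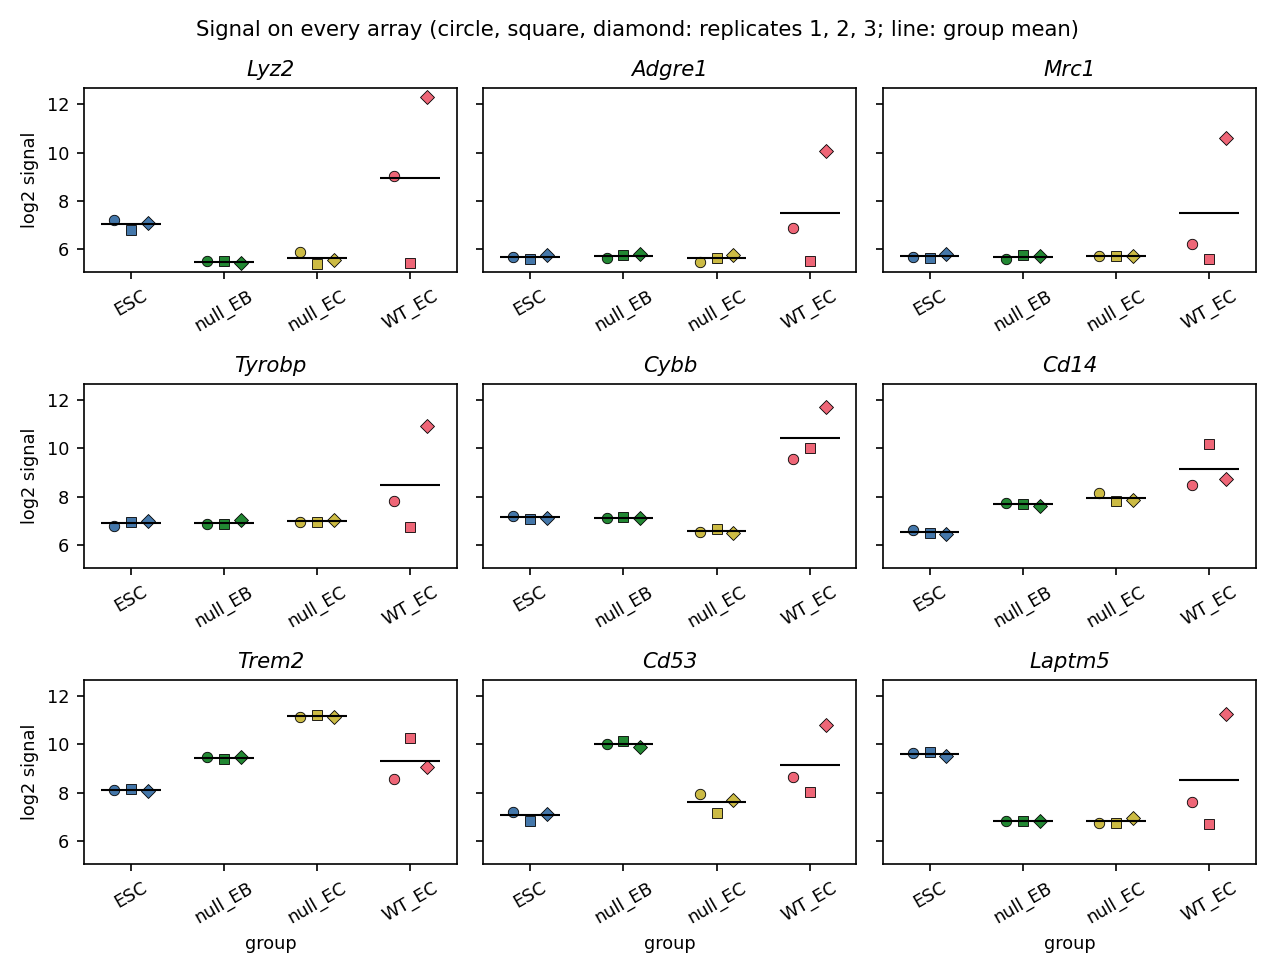
Log2 signal (vertical axis) of 9 of the genes on each array, by group (horizontal axis). Symbols are replicates 1, 2 and 3 and lines are group means. Lyz2, Adgre1, Mrc1 and Tyrobp are high on WT_EC 3 with WT_EC 2 at the level of the null groups. Cybb is high on all WT_EC arrays, Cd14 on WT_EC 2 and Trem2 in null_EC. Cd53 and Laptm5 are also highest on WT_EC 3 (10.81 and 11.27), but Cd53 is high in null_EB and Laptm5 in ESC as well.

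The 3 wild-type arrays were therefore far apart in these genes. The median SD of the 37 genes was 1.3 within WT_EC, against 0.213 over all genes, while in the other groups it was 0.077 to 0.0793, beside 0.0652 to 0.0847 over all genes. In 31 of the 37 genes the order was WT_EC 3 above WT_EC 1 above WT_EC 2, which held for 14% of all genes. The exceptions were Aif1, Cd14, Cd3e, Cybb, Mpeg1 and Trem2. WT_EC 3 was at least 2-fold above WT_EC 2 in 29 genes (3.9% of all genes) and WT_EC 1 at least 2-fold above WT_EC 2 in 5 (3.11% of all genes), namely Lyz2, Lcp1, Adgre1, Tyrobp and Msr1. The reverse, WT_EC 2 at least 2-fold above WT_EC 3, held for Cd14 and Trem2 (2 genes, 2.13% of all genes). WT_EC 2 was the lowest of all 12 arrays for 11 members (11.7% of all genes). For the 23 genes with at least a 4-fold step between WT_EC 3 and WT_EC 2, the excess of WT_EC 1 over WT_EC 2 on the linear scale had a median of 7.09% of the excess of WT_EC 3, with a range of -18.5% (Mpeg1) to 24.6% (Csf1r). It was 9.64% for Lyz2, 7.09% for Adgre1, 6.59% for Tyrobp and 1.69% for Mrc1. These shares are a description, since microarray signal is not strictly proportional to RNA.

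**Figure D3:**
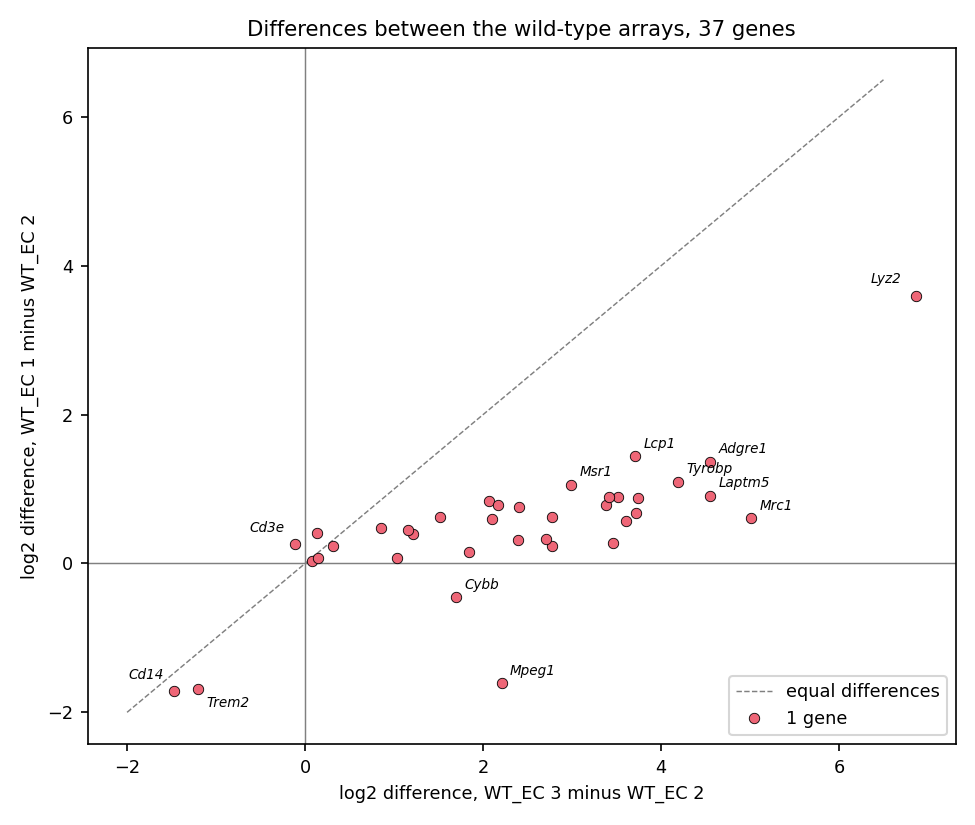
Each point is 1 of the 37 genes, with the log2 difference of WT_EC 3 minus WT_EC 2 on the horizontal axis and that of WT_EC 1 minus WT_EC 2 on the vertical axis. The dashed line marks equal differences. Lyz2 lies furthest out, at 6.87 and 3.60, Mrc1 reaches 5.01 and only 0.61, and Mpeg1, Cybb, Cd14 and Trem2 lie below 0 on the vertical axis.

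Genes of other white blood cells were read from further lists for comparison. Beside the counts of these and the later lists, 10.4% of all genes were highest on WT_EC 3, and 1.35% by at least 2-fold. In lists this short, 1 or 2 genes highest on WT_EC 3 are near the first share. Of 14 measured tissue macrophage genes 11 were highest on WT_EC 3, 6 of them by at least 2-fold, and the list median was 6.61, 6.21 and 7.59 over the WT_EC arrays. Ms4a6c reached 10.91, 18.4-fold above the next array, and Vsig4, a complement receptor of resident macrophages, was 7.79-fold above it. Of 10 alveolar macrophage genes 6 were highest on WT_EC 3, 5 of them by at least 2-fold. The chitinase-like Chil3 was at 6.52, 4.89 and 12.13 on the WT_EC arrays and the proton pump subunit Atp6v0d2 at 5.31, 4.87 and 10.58, 48.6-fold and 38.5-fold above the next array. Siglecf and Itgax, which define airspace macrophages, were at 7.83 and 6.68 on WT_EC 3, beside 7.65 to 8.03 and 6.30 to 6.48 on the other arrays. Of the 6 monocyte genes 4 were highest on WT_EC 3, 2 of them by at least 2-fold. These 2 were the Fc receptor Fcgr4, at 10.84 and 9.11-fold above the next array, and Nr4a1, at 11.23 and 3.75-fold above it. Nr4a1 was at 8.22 to 9.32 on the other arrays. Ccr2, the monocyte chemokine receptor, was at 5.29 on WT_EC 3, only 1.09-fold above the next array.

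Of the 14 genes of the phagocyte oxidase and Fc receptor signalling 10 were highest on WT_EC 3, 3 of them by at least 2-fold, among them the inhibitory receptor Fcgr2b (8.37, 2.73-fold above the next array) and the oxidase subunit Ncf1 (9.41, 2.68-fold). Of 19 haematopoietic cytoskeleton and transcription genes 11 were, and 2 of these by at least 2-fold, Dock2 (8.86, 4.49-fold) and Nckap1l (9.59, 4.03-fold), regulators of actin in blood cells. Lymphoid genes showed no such step: 0 of 15 other T and NK cell genes and 1 of 9 B cell genes (Cd22, 1.16-fold) were highest on WT_EC 3. The same held for 0 of 9 dendritic cell genes, 2 of 8 mast cell and basophil genes and 1 of 5 MHC class II genes, none of them by 2-fold. Of 13 neutrophil genes 4 were, and only the collagenase Mmp8 by over 2-fold (8.46, 6.86 and 11.61 on the WT_EC arrays). Mmp9, of the same list, was instead highest on WT_EC 1 (10.34, 7.04 and 7.07 on the WT_EC arrays). S100a8, S100a9 and Ly6g of this list were at 5.51, 6.88 and 5.43 on WT_EC 3. On the other arrays they were at 5.33 to 5.91, 6.59 to 6.80 and 5.28 to 5.70. Of 5 erythroid and megakaryocyte genes 1, Alas2, was highest there, 4.91-fold above the next array.

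WT_EC 3 differed in genes of other tissues as well. The median of 14 lung endothelial genes was 7.29 to 7.30 in null_EC, against 7.92, 7.08 and 8.32 in WT_EC, and 8 of the 14 were highest on WT_EC 3, 1 of them by at least 2-fold. The median of 12 fibroblast and smooth muscle genes was 10.58 to 11.23 in null_EC, against 11.01, 11.61 and 11.89 in WT_EC, and 6 of the 12 were highest on WT_EC 3, 1 of them by at least 2-fold. Of 10 lung epithelial genes 2, Krt8 and Sftpc, were highest on WT_EC 3, at 11.68 and 7.86, by 2.74-fold and 2.42-fold. The part of such cells in the differences above was not tested. Csf1, the growth factor for macrophages, was called lower in null_EC (10.63, 10.82 and 10.71) than in WT_EC (12.60, 12.05 and 11.73, log2 difference -1.41, limma adjusted p = 0.000767), with WT_EC 3 the lowest of its group. Of the 6 listed growth factors and receptors it was the only 1 called with all arrays, and without WT_EC 3 the list had 1 gene called higher and 3 called lower. In the same comparison Fabp4 and Plet1 of the alveolar macrophage list, Gpnmb of the tissue macrophage list, Cyba and Sirpa of the oxidase and Fc receptor list, Hdc of the mast cell list and Arhgdib and Cebpa of the haematopoietic list were called lower and Irf5 higher in null_EC. Of the other lists, Flt1 (endothelial) and Dpt, Lum and Pdgfrb (fibroblast) were called lower, and Kdr (endothelial) and Tbp (1 of 14 housekeeping genes) higher. No gene was called in the T and NK, B, neutrophil, dendritic, monocyte, MHC class II, erythroid, lung epithelial or embryonic stem cell lists. These lists were pooled because none of their genes was called, so limma's 0 of 82 genes was fixed by that choice. It is not a result to set beside the 8.12% of all genes called higher and 5.0% called lower. Of the 82 genes, 5 had an unadjusted limma p below 0.05. Without WT_EC 3, 2 of the monocyte genes were called higher and 1 of the dendritic cell genes lower (9.49% of all genes higher and 6.06% lower).

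**Figure D4:**
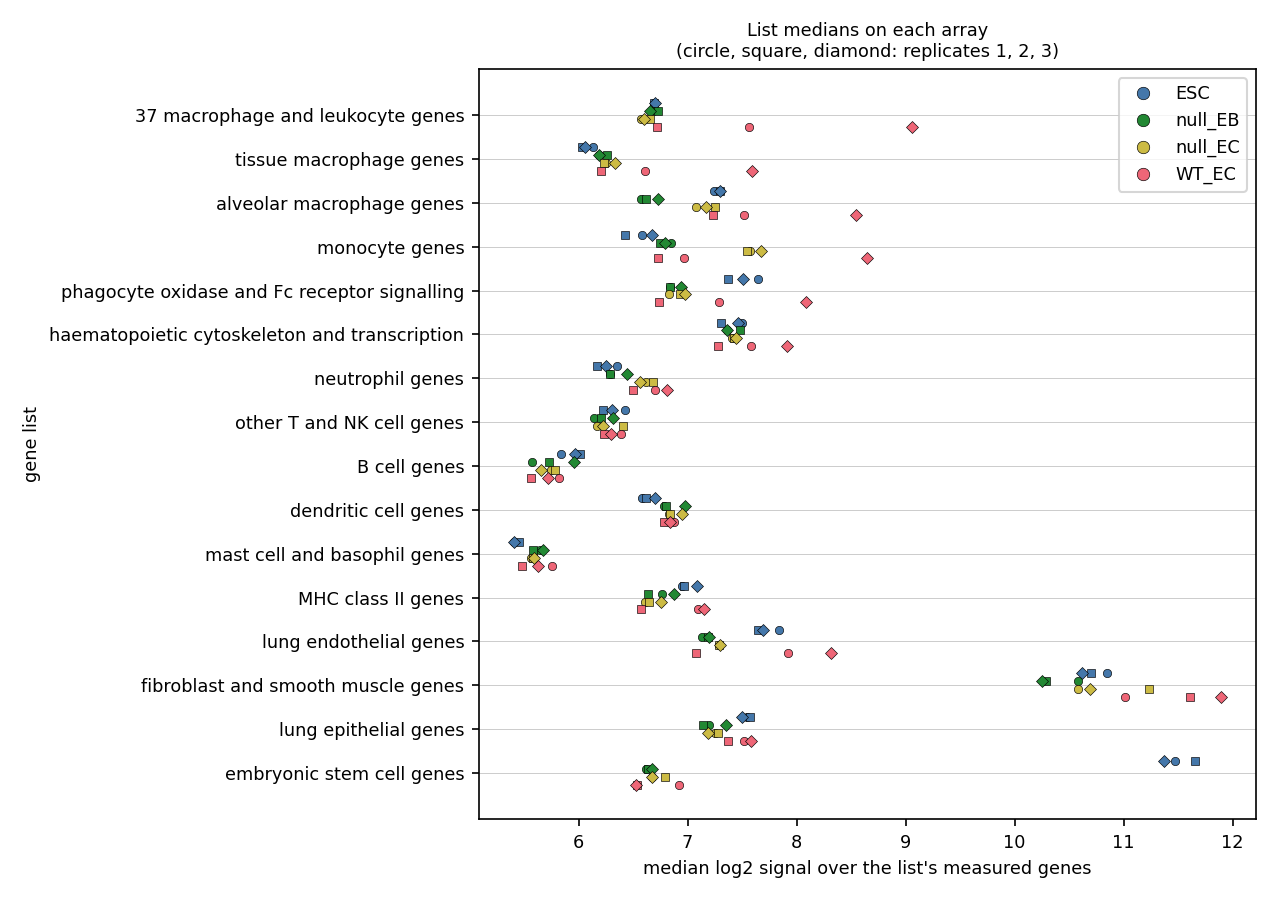
Median log2 signal (horizontal axis) of the 37 genes and of 15 further lists (rows) on each array. Colours are groups and symbols are replicates 1, 2 and 3. WT_EC 3 (diamond) stands apart in the macrophage, monocyte and phagocyte lists, at 9.06 for the 37 genes, and not in the T and NK, B, dendritic or mast cell lists. In the phagocyte oxidase list it is at 8.09, with the next array at 7.65. WT_EC 3 is also highest in the lung endothelial list (8.32, next array 7.92) and the fibroblast and smooth muscle list (11.89, next array 11.61).

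Outside the list, the 10 named genes whose values over the 12 arrays were most like the median of the 37 were Emcn, Col14a1, Itgbl1, Igsf6, Ms4a6d, Pilra, Pf4, Plek, Podn and Stab1, with Pearson correlations of 0.986 to 0.994. Igsf6, Ms4a6d, Pilra, Pf4, Plek and Stab1 are known from myeloid cells or platelets, whereas Emcn (endomucin) is an endothelial gene and Col14a1 and Podn are matrix genes of fibroblasts. Igsf6 reached 10.75 on WT_EC 3, against 6.58 to 8.16 elsewhere, and Col14a1 10.93, against 7.49 to 8.58. The likeness rests on WT_EC 3 and WT_EC 1, since over the other 10 arrays the correlations were -0.498 to 0.589.

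Since most of the list was high together on WT_EC 3, the promoter windows of RefSeq (GRCm38.p6, 250 bases before to 50 after the start) were read for short motifs. A window was found for 26 of the 37 genes, 31 windows in all. The core letters of the PU.1 site, GAGGAA or TTCCTC on the other strand, stood in 21 of the 31 windows (67.7%), against 28.3% of all 32851 windows. The longer GAGGAAGT stood in 3 windows, those of C1qc, Cd53 and Ctss (9.68%, against 3.2%), and AGAGGAAGT in none (0.0%, against 1.0%). The overlapping ETS letters GGAAGT stood in 13 (41.9%, against 23.8%) and the RUNX core TGTGGT in 7 (22.6%, against 16.8%). Cd3e, Aif1 and Trem2, which were not highest on WT_EC 3, held GAGGAA too, while no window of Lyz2, the member with the widest range, did. A match of letters is a description and not a bound site. The windows of the 3 genes with GAGGAAGT, of Mrc1, the furthest above the next array, and of Trem2, highest in null_EC, are shown with GAGGAA or TTCCTC in capitals.
Mrc1, chr2:14229164-14229463, + strand: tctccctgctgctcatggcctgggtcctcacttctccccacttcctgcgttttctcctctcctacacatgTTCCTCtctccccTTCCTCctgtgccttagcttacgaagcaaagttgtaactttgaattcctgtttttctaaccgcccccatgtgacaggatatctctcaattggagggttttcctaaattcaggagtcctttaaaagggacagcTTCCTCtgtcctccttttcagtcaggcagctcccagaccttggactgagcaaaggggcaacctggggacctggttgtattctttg
Ctss, chr3:95526536-95526835, + strand: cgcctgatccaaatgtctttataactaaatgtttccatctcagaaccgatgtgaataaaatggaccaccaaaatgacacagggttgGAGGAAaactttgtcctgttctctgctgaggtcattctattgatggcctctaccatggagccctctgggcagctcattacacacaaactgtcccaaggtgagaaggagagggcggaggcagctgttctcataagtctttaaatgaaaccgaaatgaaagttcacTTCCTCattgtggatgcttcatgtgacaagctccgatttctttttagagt
C1qc, chr4:136892865-136893164, - strand: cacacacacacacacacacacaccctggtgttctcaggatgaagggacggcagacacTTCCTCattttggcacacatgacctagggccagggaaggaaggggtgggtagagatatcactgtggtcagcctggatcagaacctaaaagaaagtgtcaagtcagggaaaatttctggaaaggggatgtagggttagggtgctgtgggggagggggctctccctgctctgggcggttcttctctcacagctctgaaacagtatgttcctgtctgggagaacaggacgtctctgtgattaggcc
Cd53, chr3:106790100-106790399, - strand: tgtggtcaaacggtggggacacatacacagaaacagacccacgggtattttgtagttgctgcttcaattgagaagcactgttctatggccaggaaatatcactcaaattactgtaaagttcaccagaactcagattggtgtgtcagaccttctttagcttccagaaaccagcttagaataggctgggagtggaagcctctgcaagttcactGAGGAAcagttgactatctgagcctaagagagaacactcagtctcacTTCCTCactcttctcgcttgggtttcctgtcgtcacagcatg
Trem2, chr17:48346151-48346450, + strand: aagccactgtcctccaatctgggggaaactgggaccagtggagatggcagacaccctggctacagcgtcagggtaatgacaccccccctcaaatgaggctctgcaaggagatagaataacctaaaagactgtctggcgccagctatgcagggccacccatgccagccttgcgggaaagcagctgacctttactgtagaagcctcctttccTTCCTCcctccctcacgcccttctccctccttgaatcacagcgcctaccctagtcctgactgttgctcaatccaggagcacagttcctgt
The Mrc1 window holds 3 matches, all as TTCCTC, the Cd53 and Ctss windows 2 each, 1 on either strand, and the C1qc and Trem2 windows 1 each, as TTCCTC.

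In CD47 null against wild-type endothelial cells, 1 of the 37 genes was called higher (2.7%, against 8.12% of all genes) and 2 were called lower (5.41%, against 5.0% of all genes) by limma at an adjusted p below 0.05. The 34 others did not pass, although the difference was negative for 33 of the 37. The median difference was -0.92, beside 0.03 over all genes. Cybb fell 14.3-fold (6.58 ± 0.0688 in null_EC against 10.42 ± 1.13 in WT_EC, a log2 difference of -3.84 with SE 0.403 and adjusted p = 0.000157), and the groups did not overlap. Cd14 was 2.26-fold lower (7.96 ± 0.185 in null_EC against 9.14 ± 0.93 in WT_EC, a log2 difference of -1.17 with SE 0.34 and adjusted p = 0.045), with no overlap either. Trem2 was 3.65-fold higher in null_EC (11.17 ± 0.0418 in null_EC against 9.30 ± 0.864 in WT_EC, a log2 difference of 1.87 with SE 0.311 and adjusted p = 0.00279), where every null_EC array exceeded every WT_EC array. WT_EC 2 lay within the range of the null_EC arrays in Adgre1 and Lyz2 and below it in Mrc1, and these genes did not pass. Adgre1 differed by -1.87 (SE 0.827, adjusted p = 0.182), Lyz2 by -3.30 (SE 1.22, adjusted p = 0.108) and Mrc1 by -1.77 (SE 0.967, adjusted p = 0.285).

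These counts turned on which wild-type arrays were used. Without WT_EC 3 the median difference shrank to -0.20. Cybb, Cd14 and Mpeg1 were then called lower (6.06% of all genes lower) and Trem2, Cd68, Clec7a and Fcgr3 higher (9.49% of all genes higher). Fcgr3, at a log2 difference of -0.41 with all arrays (adjusted p = 0.701), was then at 0.44 (adjusted p = 0.0226), and Cd68, at 0.21 (adjusted p = 0.889), was then at 1.2 (adjusted p = 0.00532). Without WT_EC 2 the median difference was -1.38 and 22 of the 37 genes were called lower, against 10.1% of all genes. Without WT_EC 1 it was -1.06 and 3 were called lower, against 7.25% of all genes. The call of Cd14 was lost without any of the null_EC arrays, with the 6 arrays alone, with the replicate block and with the housekeeping shift (adjusted p up to 0.26), and that of Trem2 with the 6 arrays alone (adjusted p = 0.0768). Cybb was called under all 12 alternatives.

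**Figure D5:**
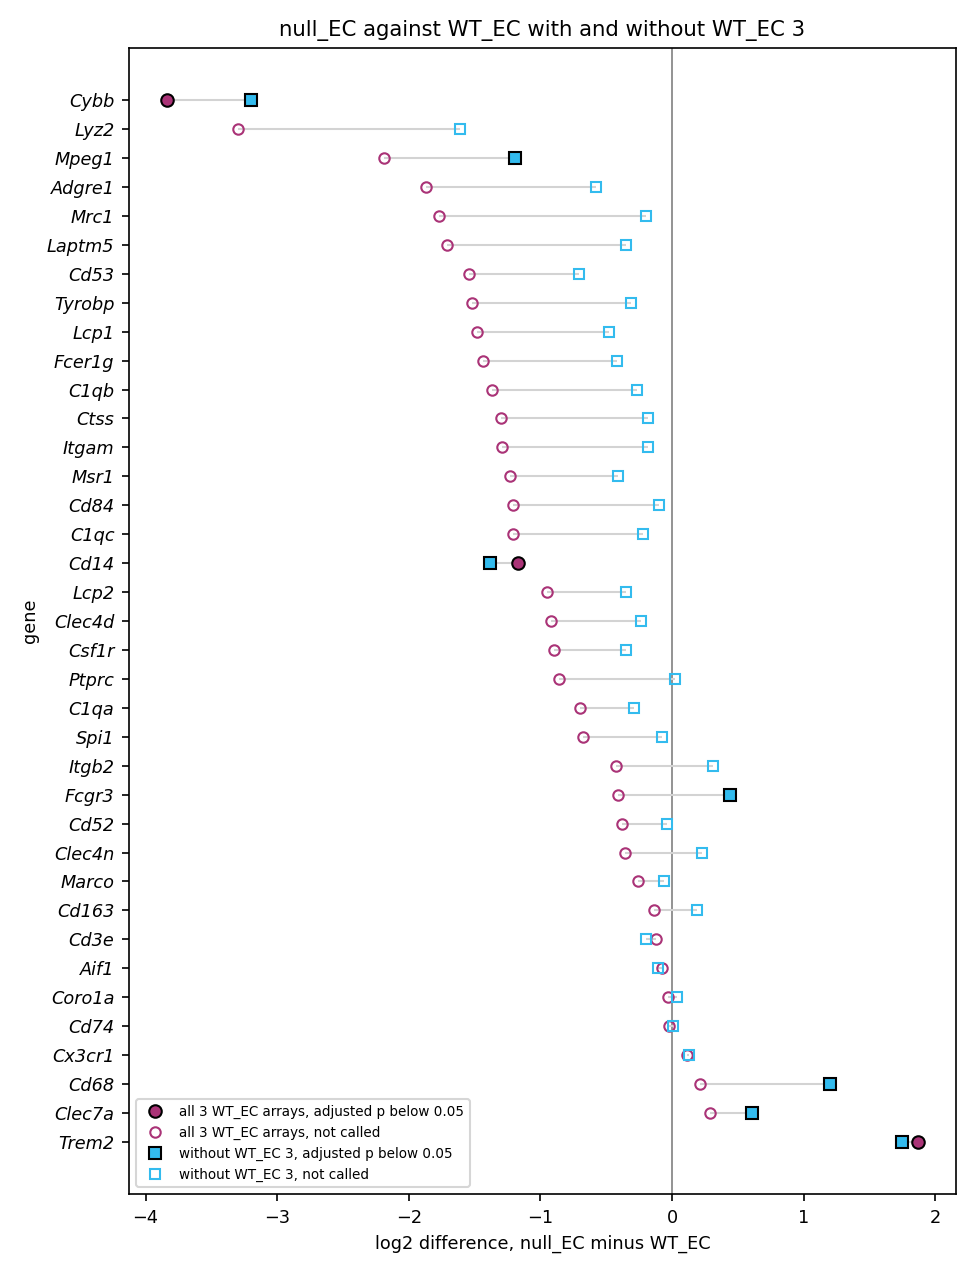
Log2 difference of null_EC minus WT_EC (horizontal axis) for each of the 37 genes (rows), with all 3 WT_EC arrays (circles) and without WT_EC 3 (squares). Filled symbols passed limma at an adjusted p below 0.05. The median moves to -0.20 without WT_EC 3, against -0.92 with all arrays, and Cybb, Cd14 and Trem2 are filled in both.

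In the null_EB aggregates against null_EC cells, 1 gene was called higher (2.7%, against 2.9% of all genes) and 1 lower (2.7%, against 2.5% of all genes). Cd53 rose 5.28-fold (10.02 ± 0.115 in null_EB against 7.62 ± 0.393 in null_EC, a log2 difference of 2.40 with SE 0.543 and adjusted p = 0.0291), with no overlap. Trem2 fell 3.31-fold (9.45 ± 0.0488 in null_EB against 11.17 ± 0.0418 in null_EC, a log2 difference of -1.72 with SE 0.311 and adjusted p = 0.00975), again with no overlap. The median difference of the 37 genes was -0.05, beside -0.01 over all genes. The call of Cd53 was lost without any 1 array of either group and with the housekeeping shift (adjusted p up to 0.128), with a difference of 2.19 to 2.58 over its alternatives, and that of Trem2 without null_EB 2 (adjusted p = 0.0514). A fit chosen after seeing the data estimated the spread from the 9 arrays of ESC, null_EB and null_EC. In it Cd53 and Cybb were called higher (5.41%, against 13.7% of all genes). Trem2, Fcgr3, Itgb2, Cd14 and Clec7a were called lower (13.5%, against 11.7% of all genes). Fcgr3 was at 6.89, 6.79 and 6.81 on the null_EB arrays, below the 7.87, 8.0 and 7.79 on the null_EC arrays.

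In ESC against null_EC, 3 genes were called higher (8.11%, against 22.9% of all genes) and 5 lower (13.5%, against 25.1% of all genes). Laptm5 was 6.93-fold higher in ESC (9.62 ± 0.0945 in ESC against 6.83 ± 0.13 in null_EC, a log2 difference of 2.79 with SE 0.852 and adjusted p = 0.0192), and Cd3e and Cd74, at or near low signal, were 1.33-fold and 1.35-fold higher (adjusted p = 0.0121 and 0.00113). Trem2 was 8.3-fold lower in ESC (8.12 ± 0.0475 in ESC against 11.17 ± 0.0418 in null_EC, a log2 difference of -3.05 with SE 0.311 and adjusted p = 1.05e-05). Clec7a was 3.19-fold lower (adjusted p = 7.53e-05), Cd14 2.68-fold (adjusted p = 0.00503), Itgb2 2.44-fold (adjusted p = 0.0395) and Cx3cr1 1.22-fold (adjusted p = 0.00624). The call of Laptm5 was lost without null_EC 1, null_EC 2, ESC 1 or ESC 2 (adjusted p up to 0.0529), and that of Itgb2 without any 1 array of either group and with the housekeeping shift (adjusted p up to 0.0972). Cd3e lost its call without ESC 3 and with the housekeeping shift (adjusted p up to 0.0574), and Cd74 and Cx3cr1 lost theirs with the housekeeping shift (adjusted p = 0.112 and 0.0669). Trem2, Clec7a and Cd14 were called under all 13 alternatives. With the spread estimated from the 9 arrays, 7 genes were called higher (29.4% of all genes) and 13 lower (37.4% of all genes).

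In ESC against WT_EC, 12 genes were called lower (32.4%, against 21.7% of all genes) and 1, Cd74, higher (2.7%, against 25.4% of all genes). The lower ones were Cybb (9.65-fold, adjusted p = 5.32e-05), Cd14 (6.05-fold, adjusted p = 8.4e-05), Cd53 (4.25-fold), Mpeg1 (4.19-fold), Itgb2 (3.29-fold), Fcgr3 (2.87-fold), Clec7a (2.61-fold), Trem2, Csf1r, Lcp2, C1qa and Marco. Without WT_EC 3 the median difference of the 37 genes was -0.20, against -1.17 with all arrays, with 12 genes called lower (22.0% of all genes) and 3, Laptm5, Cd68 and Cd74, higher (25.1% of all genes). Without WT_EC 2 it was -1.65 and 31 were called lower (28.4% of all genes). Without 1 of the ESC arrays 6 or 7 were called lower, with 7973 to 8017 genes called in either direction. C1qa, Csf1r, Fcgr3, Lcp2 and Mpeg1 lost their calls without any 1 ESC array and with the 6 arrays alone (adjusted p up to 0.154). Marco lost its call without ESC 2, ESC 3, WT_EC 1 or WT_EC 3 and with the 6 arrays alone (adjusted p up to 0.138). Cd53, Itgb2 and Trem2 lost theirs with the 6 arrays alone (adjusted p = 0.0604, 0.0747 and 0.0696), and Cd74 with array weights and with the housekeeping shift (adjusted p up to 0.273). Cybb, Cd14 and Clec7a were called under all 12 alternatives. The comparisons with WT_EC share its 3 arrays, and those with null_EC share theirs.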

How the data were processed

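RNA of 12 mouse samples (300 ng each, per the labels' protocols) was measured on 1 array apiece. The deposited values are log2 signals. Per the submitters' processing notes, the authors used RMA in Affymetrix Expression Console 1.2.1. Arrays have no read depth, and 3 per group limit the precision.

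Of 35556 probe sets, 21789 carried a single gene in GEO's platform annotation and were used, while 1621 carried several and 12146 none. A human array is named in the labels' protocols, but the identifiers are those of the mouse platform. Where several probe sets shared a gene (999 genes), the brightest by mean signal was taken, leaving 19938 genes. Against RefSeq, 21698 probe sets matched by gene identifier and 0 symbols changed.

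limma 3.58.1 in R 4.3.3 (lmFit, eBayes) was run on all 12 arrays, with group means and 1 pooled spread. Benjamini-Hochberg adjustment covered all genes of each comparison, and the threshold was 0.05. The script was tested on simulated data in which a gene had the same spread in every group. That test does not cover the wider spread of WT_EC. Alternatives were a minimum signal (log2 of 6 on 3 arrays), the 6 arrays compared alone, array weights, the replicate number as a block, a shift to equal medians of 14 housekeeping genes, averaged probe sets, each array left out in turn and, chosen after seeing the data, a fit over 9 arrays.

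The members and lists were chosen with earlier results of these data known. Every member is named. Values on every array are given for members called in null_EC against WT_EC or null_EB against null_EC, for the 12 with the widest range, and for Ptprc, Spi1, Csf1r, Adgre1 and Cd3e. The 10 outside genes named are those most correlated with the median of the members, leaving out small RNAs, receptors of the olfactory and vomeronasal families, clone names and predicted genes. From each other list, genes called in null_EC against WT_EC were named. Of the up to 3 with the widest range in WT_EC, only some were named, mostly genes highest on WT_EC 3. Those left out of the Results include Mertk, highest on WT_EC 3, Csf2, highest on WT_EC 1, and Plac8, highest on WT_EC 2. Siglecf, Itgax, Ccr2, S100a8, S100a9, Ly6g, Ncf1, Sftpc and Pecam1 are further genes, chosen after their values were seen, as were the motifs and the counts of highest arrays.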

Additional observations from a re-analysis of the deposited data

How the results depend on the processing

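Of 26 calls of single genes under 12 or 13 alternatives each, 0 changed direction, 262 of 322 results stayed past the threshold and 60 did not. The mean of all probe sets and the filter on dim genes, which kept 32 of the 37 genes, moved none of the counts of called members or of all genes by over 1.5 times.

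With the 6 arrays compared alone, 0 members were called higher and 1 lower in null_EC against WT_EC (588 genes in all), 2 and 4 in null_EB against null_EC (5464 in all), 7 and 13 in ESC against null_EC (13304 in all), and 3 were called lower in ESC against WT_EC (6250 in all). With array weights 25 were called lower in null_EC against WT_EC (2772 in all), 2 higher and 4 lower in null_EB against null_EC (8001 in all), 6 higher in ESC against null_EC (14316 in all), and 0 higher and 30 lower in ESC against WT_EC (8493 in all). These weights were 0.371 for WT_EC 3, 0.131 for WT_EC 2 and 0.0897 for WT_EC 1. With the housekeeping shift, which was -0.346 to 0.273 on WT_EC arrays, 1 was called lower in null_EC against WT_EC (1076 in all), 0 higher in null_EB against null_EC (367 in all, median difference 0.0088), 1 higher and 3 lower in ESC against null_EC (7237 in all, median -0.15) and 0 higher in ESC against WT_EC (9331 in all). With the fit over 9 arrays 2 and 5 were called in null_EB against null_EC (5058 in all) and 7 and 13 in ESC against null_EC (13314 in all). The counts in all are of 19938 genes called in either direction. Shares for 1 direction were computed only for the fit over 9 arrays. In null_EB against null_EC, the fit over 9 arrays left the log2 differences of Fcgr3 (-1.06) and Cybb (0.56) unchanged. Their SE was 0.527 and 0.403 in the main fit, and 0.073 and 0.0609 in the fit over 9 arrays. The cause of the moves in the counts was not tested.

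With the replicate block 1 member was called lower in null_EC against WT_EC, Cybb, in place of 2, and no other count of called members moved by over 1.5 times. The labels share only a number: same-numbered arrays of null_EC and WT_EC had deviations from the group means that correlated at -0.116 to -0.0479, and those of null_EB and null_EC at -0.105 to 0.225.

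Leaving out each array in turn gave, in null_EC against WT_EC, 1 to 4 members higher, 1 to 22 lower, 1335 to 5435 genes called and a median difference of -1.38 to -0.20. In null_EB against null_EC it gave 0 to 0 higher, 0 to 1 lower, 390 to 676 genes and -0.063 to -0.022. In ESC against null_EC it gave 2 to 3 higher, 4 to 4 lower, 7997 to 8261 genes and -0.081 to -0.014, and in ESC against WT_EC 1 to 3 higher, 6 to 31 lower, 7973 to 11196 genes and -1.65 to -0.20. The spread is pooled over groups whose own spread differed, with a median SD of 0.213 over all genes in WT_EC and 0.0652 to 0.0847 in the others. No detection calls were used, so values at low signal have no known distance from background.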
